A study of Mus musculus with 10 samples.

Results

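Messenger RNA levels of 10 genes that prepare and feed DNA replication, Mcm2, Mcm3, Mcm4, Mcm5, Mcm6, Mcm7, Gins2, Pcna, Rrm2 and Tyms, were followed in mouse dentate gyrus between 4 and 12 weeks of age. They were taken by name among the 19752 genes measured, through probe sets whose platform annotation names only that gene. Of the 10 genes, 9 had 1 such probe set, and for Pcna, which had 2, the probe set with the higher mean over all arrays was used. The dentate gyri came from mice whose labels give the strain as C56BL/6J, the sex as female and no treatment, and they were cut out of the hippocampus with a needle tip. Whole-transcript Affymetrix arrays were run on total RNA at 4, 6, 8, 10 and 12 weeks, with 2 arrays per age and 10 in all. Whether the pair of arrays at an age stands for separate mice, for pools or for repeats of 1 extract is not in the labels, and p-values therefore rest on a spread that may be technical.

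Before DNA can be copied, the Mcm2 to Mcm7 proteins are loaded as a ring onto replication origins, a step called licensing. The ring becomes the active helicase when Cdc45 and the GINS complex, of which Gins2 is a subunit, join it. Pcna is the sliding clamp that holds DNA polymerases on the template, Rrm2 is the small subunit of the ribonucleotide reductase that makes deoxyribonucleotides, and Tyms, thymidylate synthase, makes the precursor of thymidine nucleotides. In the dentate gyrus, precursor cells keep dividing after birth and give rise to granule neurons, and oligodendrocyte precursors divide as well.

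The values are log2 levels per probe set as deposited, and 1 unit is a doubling. Array medians lay between 8.27 and 8.31, and correlations between arrays across genes between 0.994 and 0.998. By its mean correlation with the others, 0.9952, 8 weeks replicate 1 was the array least like the rest, and 6 weeks replicate 1 held 13.77 log2 units of Ttr, a choroid plexus gene, against 8.87 to 10.15 on the other arrays. Xist, made from the inactive X chromosome of females, lay between 5.41 and 6.02 on all arrays, below the level taken here as dim, while Uty, Kdm5d and Eif2s3y, which lie on the Y chromosome, were between 8.59 and 9.34, which goes against the labelled sex. A gene is called dim where its mean lies under 7.01, the 95th percentile of 1207 olfactory, vomeronasal and trace amine receptor genes, averaged over the arrays. Genes of mature granule cells such as Prox1, Calb1 and C1ql2 were among the markers read to check the tissue, and 0 of the 7 in that list were dim.

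Mcm7 and Rrm2 fell with age, and the other 8 genes did not pass the test. Over the 8 weeks of the series the fitted level of Rrm2 was 1.49-fold lower and that of Mcm7 1.34-fold lower at 12 than at 4 weeks. In bulk tissue fewer cells of a type and less RNA per cell cannot be told apart. The fitted changes of the other 8 lay between −0.15 (Gins2) and 0.09 (Mcm6) on the log2 scale. The trend was the coefficient of age in weeks in limma, given as the log2 change from 4 to 12 weeks and adjusted over all 19752 genes. Of the 10 genes 2 were called at an adjusted p under 0.05, both lower, against 0.673% of all genes called lower, 0.147% called higher and 0.82% called in either direction. All 4 arrays of 10 and 12 weeks lay below all 4 arrays of 4 and 6 weeks for these same 2 genes, an order that 6.56% of all genes showed, and 0 of the 10 had the opposite order, shown by 3.48%. The median change was −0.08 over the 10 genes and 0.00 over all genes tested (0.0034). Negative changes were fitted for 9 of the 10 genes, against 48.8% of all genes. All genes include dim ones, and neither this share nor the median was computed over genes of like level. The changes of Mcm5 and Tyms, −0.01 each, turned positive under another scaling, Mcm5 with quantile normalization and Tyms with median centring.

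**Figure D1:**
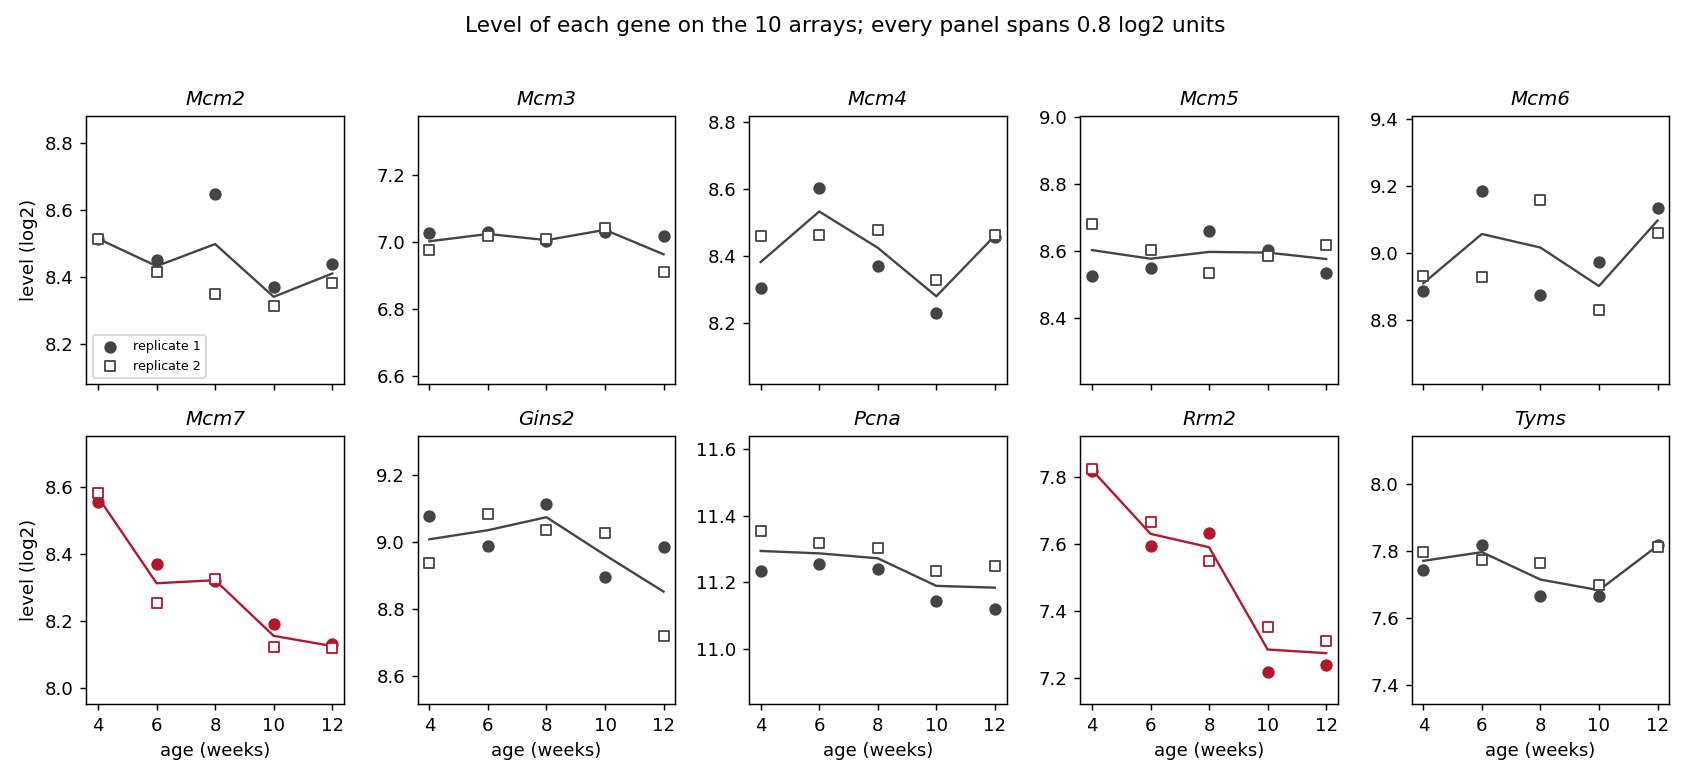
Log2 level against age in weeks for each of the 10 genes, with filled circles for replicate 1, open squares for replicate 2 and a line through the mean of each age; every panel spans the same 0.8 log2 units. Mcm7 and Rrm2, in red, step down between 4 and 12 weeks, while the arrays of the other genes, in grey, overlap between the younger and older ages.

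Mcm7 is a subunit of the helicase ring and lies on chromosome 5 at 138164583 to 138172111 of GRCm38.p6, the assembly that mm10 corresponds to. Its level was 8.56 and 8.58 at 4 weeks, 8.37 and 8.26 at 6 weeks, 8.32 and 8.33 at 8 weeks, 8.19 and 8.12 at 10 weeks, and 8.13 and 8.12 at 12 weeks. The 4-week arrays were the highest of the series, the 6- and 8-week arrays shared a middle level, and the 10- and 12-week arrays were the lowest, with no overlap between these 3 sets. The sets were chosen after the values were seen, and the share of all genes with this order was not counted. The fitted change was −0.42 ± 0.07 (SE; 95% confidence interval −0.57 to −0.27; limma adjusted p = 0.0162). Between the ends of the series the mean was 8.13 ± 0.01 at 12 weeks and 8.57 ± 0.02 at 4 weeks (SD, n = 2 each). That difference was −0.44 ± 0.07 (SE, limma adjusted p = 0.0281). It did not pass when any 1 array of 4, 10 or 12 weeks was left out (adjusted p between 0.0691 and 0.255). The trend was not called in 4 omissions. Leaving out the first array of 4 weeks gave −0.39 (adjusted p = 0.108), leaving out the second gave −0.37 (0.0913), and leaving out both 12-week arrays gave −0.49 (0.0994). Without both 4-week arrays it was −0.29 (adjusted p = 0.512).

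Rrm2, the cell-cycle-regulated subunit of ribonucleotide reductase, lies on chromosome 12 at 24708254 to 24714146. Its level was 7.82 and 7.83 at 4 weeks, 7.60 and 7.67 at 6 weeks, 7.63 and 7.55 at 8 weeks, 7.22 and 7.35 at 10 weeks, and 7.24 and 7.31 at 12 weeks. Here too the 4-week arrays stood highest, the 6- and 8-week arrays lay between, and the 10- and 12-week arrays formed the lowest set without overlap. As for Mcm7, the share of all genes with this order was not counted. The fitted change was −0.58 ± 0.07 (SE; 95% confidence interval −0.74 to −0.42; limma adjusted p = 0.00341). At 12 weeks the mean was 7.28 ± 0.05, against 7.82 ± 0.0042 at 4 weeks (SD, n = 2 each). The difference between these ages was −0.55 ± 0.07 (SE, limma adjusted p = 0.0164), and it did not pass when any 1 of the 4 arrays compared was left out (adjusted p between 0.0992 and 0.184). Its trend passed whichever 1 of the 10 arrays was left out, with changes between −0.62 and −0.54, but not without both 4-week arrays (−0.55, adjusted p = 0.292). The mean of Rrm2 was lower at each age than at the age before, and that of Mcm7 in 3 of the 4 steps. The arrays of replicate 1 at 6 and at 8 weeks stood apart above. Both genes stayed called with either of them or both left out, the latter chosen after the values were seen. As 8 weeks is the middle of the series, leaving out 1 array of that age cannot move the fitted change. That omission therefore tests only the spread.

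**Figure D2:**
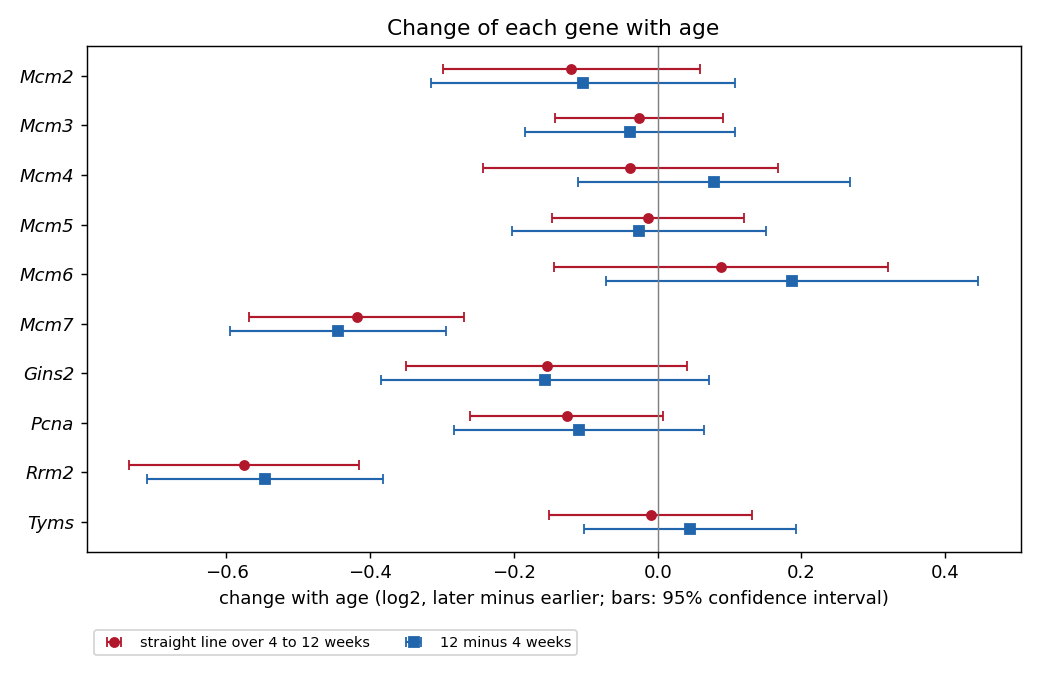
Change of each of the 10 genes with age on the log2 scale, with red circles for the straight line over 4 to 12 weeks, blue squares for 12 minus 4 weeks and bars for 95% confidence intervals from limma. The intervals of Mcm7 and Rrm2 lie wholly below zero in both fits, and those of the other 8 genes include it.

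The sequence before the start of Mcm7 and Rrm2 is shown because these 2 genes were called lower with age. That of Mcm6 is shown because it carries the most E2F motifs of the group and did not pass the test. E2F factors bind the promoters of many S-phase genes, with sites close to the letters TTTGGCGC, TTTCGCGC, TTTCCCGC or TTTGCCGC. Each window holds 250 bases before and 50 bases after a transcript start of the promoter table, from RefSeq on GRCm38.p6, read 5′ to 3′ on the gene's strand, with E2F motifs found on either strand in capitals. The windows lie at chr5:138171834-138172133 (Mcm7, minus strand, the outer of the 2 starts that the promoter table lists, which lies inside the annotated 5′ end of the gene), chr12:24708004-24708303 (Rrm2, plus strand) and chr1:128359656-128359955 (Mcm6, minus strand).
Mcm7: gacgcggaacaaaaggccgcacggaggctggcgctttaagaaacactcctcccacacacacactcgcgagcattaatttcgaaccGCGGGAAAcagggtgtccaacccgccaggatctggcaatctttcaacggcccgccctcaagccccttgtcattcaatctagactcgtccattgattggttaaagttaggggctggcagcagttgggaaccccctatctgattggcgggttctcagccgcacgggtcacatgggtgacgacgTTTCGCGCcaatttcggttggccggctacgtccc
Rrm2: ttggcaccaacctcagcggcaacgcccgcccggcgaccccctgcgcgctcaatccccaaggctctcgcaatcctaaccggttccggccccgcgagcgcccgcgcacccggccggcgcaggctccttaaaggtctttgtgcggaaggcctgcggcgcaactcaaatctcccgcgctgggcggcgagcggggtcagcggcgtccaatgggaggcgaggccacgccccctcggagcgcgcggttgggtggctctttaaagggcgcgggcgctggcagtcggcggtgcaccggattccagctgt
Mcm6: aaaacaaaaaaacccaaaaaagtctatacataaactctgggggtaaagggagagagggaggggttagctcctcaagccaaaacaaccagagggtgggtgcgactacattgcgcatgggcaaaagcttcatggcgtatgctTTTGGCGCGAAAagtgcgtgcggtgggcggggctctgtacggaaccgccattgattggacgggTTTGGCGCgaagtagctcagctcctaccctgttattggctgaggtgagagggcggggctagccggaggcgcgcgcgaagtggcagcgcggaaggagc

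Among the 8 of 10 genes with a window in the table (Mcm4 and Gins2 were not matched), 4 held at least 1 E2F motif in these letters, namely Mcm3, Mcm5, Mcm6 and Mcm7, against 2.26% of all 32851 promoter windows. Mcm7 had 2, at −165 to −158 and at 17 to 24 from the start, and the second shares 1 base with a CCAAT box. Mcm6 had 3, of which the 2 around −110 to −99 overlap each other. Mcm3 and Mcm5 had 2 each, overlapping in Mcm5, and the windows of Mcm2, Pcna, Rrm2, Tyms and the inner start of Mcm7 had none. A CCAAT box was found in 7 of the 8 genes (37.4% of all windows) and a GC box, GGGCGG, in 7 of the 8 (35.7% of all windows), on either strand. So of the genes that fell, Mcm7 had the E2F letters in its outer window and Rrm2 did not, and 3 genes with the letters did not pass the test. A match is a string of letters and not a measured binding site.

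The other subunits of the ring did not pass. Mcm2 lies on chromosome 6 (88883474 to 88898780), Mcm3 and Mcm6 on chromosome 1 (20802966 to 20820312 and 128331575 to 128359705), Mcm4 on chromosome 16 (15623897 to 15637400) and Mcm5 on chromosome 8 (75109468 to 75128439). Mcm2 had 8.52 and 8.52 at 4 weeks, 8.45 and 8.41 at 6 weeks, 8.65 and 8.35 at 8 weeks, 8.37 and 8.31 at 10 weeks, and 8.44 and 8.38 at 12 weeks. Both 12-week arrays lay below both 4-week arrays, as they did for 22.2% of all genes, but the highest value of the series came from 8 weeks replicate 1, the array least like the others. The fitted change was −0.12 ± 0.08 (SE, limma adjusted p = 0.647). It was −0.12 without that array too, but an array of 8 weeks, the middle of the series, cannot move the fitted change.

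Mcm6 had 8.89 and 8.93 at 4 weeks, 9.19 and 8.93 at 6 weeks, 8.88 and 9.16 at 8 weeks, 8.97 and 8.83 at 10 weeks, and 9.14 and 9.06 at 12 weeks. Its 2 arrays differed widely at 6 and 8 weeks, and it was the 1 gene of the 10 with a positive fitted change, 0.09 ± 0.11 (SE, limma adjusted p = 0.833), and both 12-week arrays stood above both 4-week arrays, as for 21.6% of all genes. Mcm4 lay between 8.23, at 10 weeks, and 8.60, at 6 weeks, and its change of −0.04 ± 0.09 (SE) was smaller than the gap between the 2 arrays of 4 weeks, 8.30 and 8.46. Mcm5 had all arrays between 8.53 and 8.68 and a change of −0.01 ± 0.06 (SE). Mcm3, at 6.91 to 7.04, stood at the dim reference and exceeded it on 6 of 10 arrays, with a change of −0.03 ± 0.05 (SE).

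The 95% confidence intervals of the fitted changes of these subunits ran from −0.30 to 0.06 for Mcm2, from −0.14 to 0.09 for Mcm3, from −0.24 to 0.17 for Mcm4, from −0.15 to 0.12 for Mcm5 and from −0.14 to 0.32 for Mcm6. The intervals of Mcm3, Mcm4, Mcm5 and Mcm6 lie wholly above that of Mcm7, while that of Mcm2 overlaps it at its lower end. The difference between the subunits was itself not tested. A change as large as the one fitted for Mcm7, −0.42, lies outside the interval of each of the other 5 subunits.

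Gins2, the GINS subunit, lies on chromosome 8 (120581266 to 120589075). It had 9.08 and 8.94 at 4 weeks, 8.99 and 9.08 at 6 weeks, 9.11 and 9.04 at 8 weeks, 8.89 and 9.03 at 10 weeks, and 8.98 and 8.72 at 12 weeks. The low end of its series was 1 array, 12 weeks replicate 2, and the other 12-week array lay among those of 4 weeks. Its change was −0.15 ± 0.09 (SE; 95% confidence interval −0.35 to 0.04; limma adjusted p = 0.57), and −0.05 without that array. The annotated 3′ end of Gins2 overlaps that of Gse1 by 118 bases, and Gse1 had a change of 0.10 ± 0.06 (SE, limma adjusted p = 0.593).

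Pcna, the sliding clamp, lies on chromosome 2 (132249286 to 132253180). It had 11.24 and 11.35 at 4 weeks, 11.26 and 11.32 at 6 weeks, 11.24 and 11.30 at 8 weeks, 11.15 and 11.23 at 10 weeks, and 11.12 and 11.25 at 12 weeks. In each age the array of replicate 2 was the higher one, and the mean was lower at each age than at the age before, but the younger and older arrays overlapped. The fitted change was −0.13 ± 0.06 (SE; 95% confidence interval −0.26 to 0.01; limma adjusted p = 0.463, the lowest of the 8 genes that did not pass). The other Pcna probe set differed from it by at most 0.019 log2 units on any array and gave −0.11. The platform annotation gives both probe sets to Pcna, and whether either reads a near-identical copy of the gene was not tested.

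Tyms, on chromosome 5 (30038546 to 30073645), lay between 7.67 and 7.82 on all 10 arrays, with means of 7.77 ± 0.04 at 4 weeks, 7.80 ± 0.03 at 6 weeks, 7.71 ± 0.07 at 8 weeks, 7.68 ± 0.02 at 10 weeks and 7.82 ± 0.01 at 12 weeks (SD, n = 2 each). The lowest mean was at 10 weeks, where Rrm2 had already reached its low level, and the highest at 12 weeks. Its change was −0.01 ± 0.06 (SE; 95% confidence interval −0.15 to 0.13; limma adjusted p = 0.976). Both 12-week arrays, 7.82 and 7.81, stood above both 4-week arrays, 7.74 and 7.80, as for 21.6% of all genes. The difference between Tyms and Rrm2 was not tested.

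No gene of the 10 passed in any of the 4 steps between successive ages, and neither did any of the 19752 genes in limma (0% called in each step). At an unadjusted p under 0.05 there were 815 genes for 6 against 4 weeks, 1234 for 8 against 6, 946 for 10 against 8 and 1104 for 12 against 10. Mcm7 differed by −0.26 ± 0.07 (SE) between 6 and 4 weeks, 0.01 ± 0.07 between 8 and 6 weeks, −0.17 ± 0.07 between 10 and 8 weeks and −0.03 ± 0.07 between 12 and 10 weeks. For Rrm2 the same steps were −0.19, −0.04, −0.31 and −0.01, each ± 0.07 (SE). The largest step of Mcm7 was thus the first and that of Rrm2 the third, and adjusted p-values were 0.838 or higher for both genes in all steps. The F-test for any difference between ages called 33 genes (0.167%) and 0 of the 10, with adjusted p = 0.0685 for Rrm2 and 0.169 for Mcm7. At an unadjusted p under 0.05 it counted 1672 genes, Rrm2 (0.000132) and Mcm7 (0.000646) among them. In the comparison of 12 with 4 weeks, which uses the ends of the same series, 2 of the 10 genes were called, again Mcm7 and Rrm2, against 0.39% of all genes called lower and 0.516% in either direction. The differences of the other 8 lay between −0.16 (Gins2) and 0.19 (Mcm6).

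Of the 45 pairs that the 10 genes form, 1 passed for Pearson's r over the 10 arrays after Benjamini-Hochberg adjustment, and 0 for Spearman's rho. Mcm7 and Rrm2 had r = 0.902 (permutation p = 0.00047, adjusted 0.0211) and rho = 0.782 (permutation p = 0.0103, adjusted 0.369), and r was 0.819 without the 2 arrays farthest from the median of Mcm7. These arrays share the age trend of both genes. The permutations shuffled arrays across ages, so their p-values cannot separate that shared trend from any further relation. At 6, 8, 10 and 12 weeks the array with the higher Mcm7 had the lower Rrm2. At 4 weeks replicate 2 was higher in both genes. Mcm4 and Tyms had r = 0.811 (permutation p = 0.00413, adjusted 0.0929) and rho = 0.648 (permutation p = 0.0492, adjusted 0.369), and r was 0.781 without the 2 farthest arrays. Pcna and Rrm2 had r = 0.739 (permutation p = 0.014, adjusted 0.21), and 0.543 without the 2 farthest arrays. For Mcm4 and Mcm6 r was 0.689 (permutation p = 0.0278, adjusted 0.313), and 0.812 without the 2 farthest arrays. Mcm3 and Gins2 had r = 0.731 (permutation p = 0.0422, adjusted 0.343) and rho = 0.127 (permutation p = 0.734, adjusted 0.918). That relation rested on 2 arrays, since r was −0.461 without them. By the mean of the 10 genes on each array, which lay between 8.43, at 10 weeks, and 8.61, at 4 weeks, the most alike of all other genes were Ndnf (r = 0.972), A130010J15Rik (0.946), Smpdl3a (0.942), Ttc28 (0.940), Dhx16 (0.938) and Ppp1r10 (0.935), each over 10 arrays. Of these, Ndnf, a secreted neuron-derived factor (−0.48 ± 0.08, SE), Smpdl3a (−0.37 ± 0.06) and Ttc28 (−0.57 ± 0.09) fell with age, at limma adjusted p between 0.0116 and 0.0184. None of these 3 passed when 1 of the 4-week arrays was omitted (adjusted p between 0.0671 and 0.0844), and Ndnf also failed without 12 weeks replicate 2 (0.0672).

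The wider machinery was read through 5 lists with 102 measured genes beside the 10. Of these genes 1 was called (0.98% of them, against 0.82% of all genes), and 69.6% had negative changes, against 48.8% of all genes. Among the 102 genes 12 were dim, and the share of negative changes over all genes of like level was not computed. The median change of the 102 genes was −0.05. In the list of licensing and origin firing, with 25 genes, 1 fell, 0 rose and 24 did not pass, and the list median was −0.03. The gene that fell was Gins1, a partner of Gins2 in the GINS complex, with a change of −0.46 ± 0.07 (SE, limma adjusted p = 0.00808). It had 6.53 and 6.60 at 4 weeks, 6.39 and 6.53 at 6 weeks, 6.41 and 6.28 at 8 weeks, 6.24 and 6.28 at 10 weeks, and 6.17 and 6.01 at 12 weeks. All its arrays lay under the dim reference, and it did not pass without 4 weeks replicate 2 (adjusted p = 0.0524), both 12-week arrays (0.112) or both 4-week arrays (0.304). Ticrr, which helps to load Cdc45 (−0.28 ± 0.09, SE), and the licensing factor Cdt1 (−0.23 ± 0.09, SE) were the next in size and did not pass. Leaving out 12 weeks replicate 1 gave −0.18 for Ticrr, and leaving out 12 weeks replicate 2 gave −0.10 for Cdt1. The subunits of the origin recognition complex, Orc1 to Orc6, named after their values were seen, had changes between −0.06 and 0.07.

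**Figure D3:**
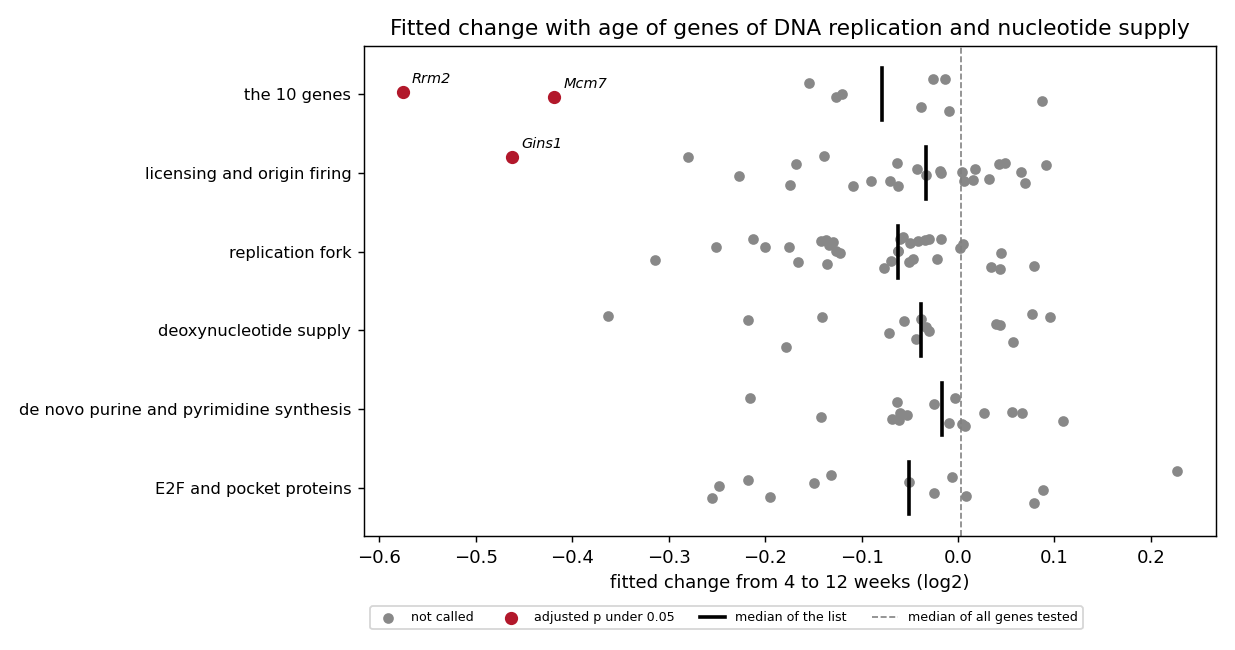
Fitted log2 change from 4 to 12 weeks of the 10 genes (top row) and of 5 lists of related genes, 1 dot per gene, with red for an adjusted p under 0.05 in limma, black bars for each list's median and a dashed line for the median of all genes. Rrm2, Mcm7 and Gins1 stand to the left of all other dots.

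At the replication fork, 0 of 33 genes passed, 27 had negative changes and the median was −0.06. The largest were those of Pole, the catalytic subunit of DNA polymerase epsilon (−0.31 ± 0.07, SE; limma adjusted p = 0.0562), and Tipin, a fork protection protein (−0.25 ± 0.16). Pole is dim, with a mean of 6.86, and it passed in 4 of 20 alternatives, with array weights (adjusted p = 0.0296), on log2 of age (0.0338), without 8 weeks replicate 1 (0.0458) and without that array and 6 weeks replicate 1 (0.0487). Among 15 further genes of deoxynucleotide supply 0 passed, with a median of −0.04. The largest changes there were those of Shmt2, which provides one-carbon units in mitochondria (−0.36 ± 0.08, SE; limma adjusted p = 0.0603; between 0.0224 and 0.0327, and so called, in 4 of 21 alternatives), and Rrm1, the large subunit that pairs with Rrm2 (−0.22 ± 0.07, SE; adjusted p = 0.185). Rrm1 had 9.32 and 9.23 at 12 weeks, against 9.44 and 9.47 at 4 weeks, an order of these ages that 22.2% of all genes showed. De novo purine and pyrimidine synthesis had 0 of 16 called and a median of −0.02, led by Ctps (−0.22 ± 0.08, SE) and Impdh1 (−0.14 ± 0.06). The E2F and pocket protein list had 0 of 13 called and a median of −0.05, led by Tfdp1, a dimer partner of E2F factors (−0.26 ± 0.08, SE), and E2f8 (−0.25 ± 0.09, and −0.14 without 12 weeks replicate 2).

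Some markers of dividing cells fell over the same ages. In a list of 11 measured genes of mitosis, 3 of them dim, 4 fell, 0 rose and 7 did not pass, against 0.673% of all genes called lower and 0.147% called higher, and the summed level of the list (log2 of the sum of unlogged values) was 10.48 and 10.54 at 12 weeks, against 11.03 and 11.07 at 4 weeks. Mki67, the proliferation marker Ki-67, averaged 6.97 ± 0.04 at 12 weeks and 7.91 ± 0.0040 at 4 weeks (SD, n = 2 each), and Ccna2, the cyclin of S phase and G2, had 7.13 and 7.24 at 12 weeks, against 8.18 and 8.06 at 4 weeks. Their fitted changes were −0.87 ± 0.12 and −0.87 ± 0.09 (SE, limma adjusted p = 0.00695 and 0.00073). The call of Mki67 was lost without 4 weeks replicate 1 (adjusted p = 0.0548) and those of Mki67 and Ccna2 without both 4-week arrays (0.273 and 0.103). Top2a (−0.74 ± 0.13, SE) and Tpx2 (−0.53 ± 0.09) fell as well. Neither passed when 1 of the 4-week arrays was omitted (adjusted p between 0.0934 and 0.127) or when 12 weeks replicate 1 was omitted (0.087 and 0.0966), and Tpx2 also failed without the second array of 10 weeks (0.0562) or of 12 weeks (0.077). The same shares of all genes apply to the other cell type lists. Of 8 measured genes of intermediate progenitors 4 fell, with summed levels of 11.38 and 11.50 at 12 weeks, against 12.03 and 12.07 at 4 weeks. In the list of oligodendrocyte precursors 5 of 10 genes fell, with 12.27 and 12.32 at 12 weeks, against 12.67 and 12.71 at 4 weeks. These were Enpp6 (−1.18), Bmp4 (−0.96), Gpr17 (−0.77), Olig2 (−0.50) and Olig1 (−0.32). Enpp6 and Gpr17 are also genes of newly formed oligodendrocytes, so the list does not stand for precursors alone. Pdgfra (−0.16), Cspg4 (−0.14), Sox10 (−0.09), Neu4 (−0.14) and Lhfpl3 (−0.23) did not pass (limma adjusted p between 0.0838 and 0.747). In the list of neuroblasts and immature neurons 5 of 10 fell, with 13.66 and 13.68 at 12 weeks, against 14.15 and 14.20 at 4 weeks. In that of radial glia-like cells 3 of 10 fell, with 14.12 and 14.19 at 12 weeks, against 14.25 and 14.26 at 4 weeks. Those 3 were Nes, Lpar1 and Id3. Hopx, Gfap, Vim, Sox2, Hes5, Notch1 and Fabp7 did not pass, and the summed level counts them too. For 12 against 4 weeks 0 genes of this list were called. Of 7 microglial genes 0 passed, with 12.80 and 13.04 at 12 weeks, against 12.69 and 12.76 at 4 weeks, and of 7 endothelial genes 0 passed, with 11.75 and 12.03 at 12 weeks, against 11.56 and 11.62 at 4 weeks. Of 6 choroid plexus genes 0 passed, with 10.75 and 11.10 at 12 weeks, against 10.45 and 10.83 at 4 weeks. Of 7 genes of mature granule cells, summed at 14.31 and 14.34 at 12 weeks, against 14.25 and 14.28 at 4 weeks, Tdo2 fell (−0.44 ± 0.08, SE, limma adjusted p = 0.0317) and Ntng1 rose (0.55 ± 0.09, adjusted p = 0.0137). The call of Tdo2 was lost in 10 of 21 alternatives and that of Ntng1 in 5 of 21, each 4-week array among the omissions. When single arrays were left out, the counts of fallen genes were 1 to 6 for mitosis, 3 or 4 for intermediate progenitors, 5 for neuroblasts, 3 to 5 for oligodendrocyte precursors and 0 to 3 for radial glia-like cells, of which the 0 came without 4 weeks replicate 1. Without both 4-week arrays 0 mitosis genes were called. The part of these cell types in the change of Mcm7 and Rrm2 was not tested.

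**Figure D4:**
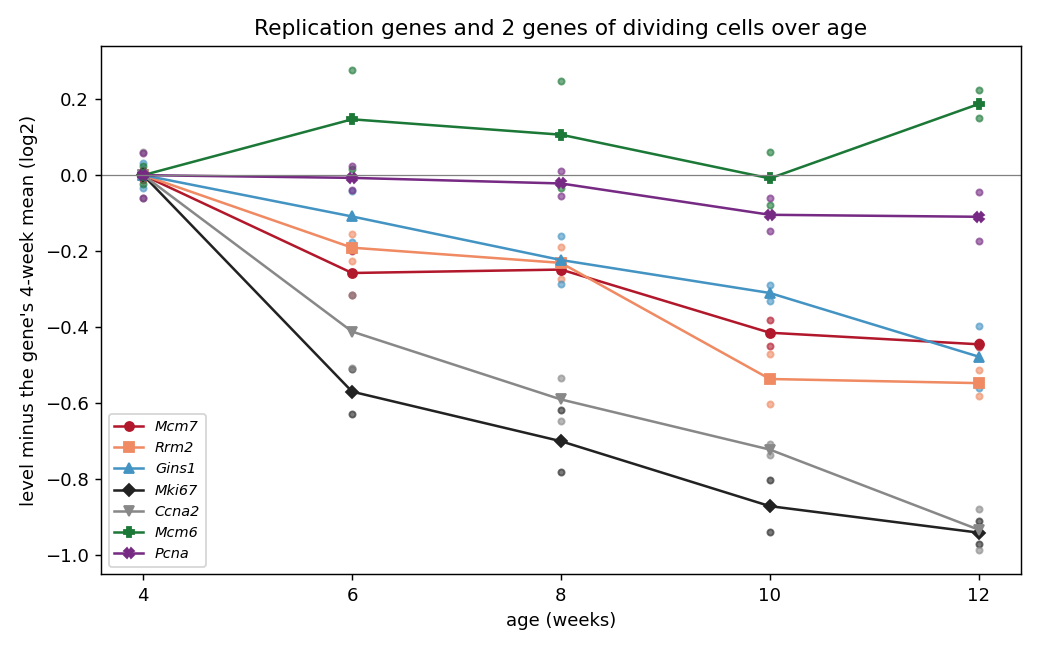
Log2 level minus each gene's own 4-week mean against age in weeks for Mcm7, Rrm2, Gins1, Mcm6 and Pcna and for the dividing-cell genes Mki67 and Ccna2; lines join age means and small dots are single arrays. At 12 weeks the differences were −0.44 for Mcm7 and −0.55 for Rrm2, with Mki67 and Ccna2 further down and Mcm6 (0.19) above its start.

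Mcm7 also hosts 3 microRNA genes, Mir106b, Mir93 and Mir25, whose cluster lies in an intron of the gene on its strand and is known from work on neural progenitors in mice. Their mature products are shown because they share a transcript with the subunit that fell. Sequences are from RefSeq on GRCm38.p6, 5′ to 3′, with the seed (bases 2 to 8) in capitals; miR-106b-5p and miR-93-5p share it.
miR-106b-5p: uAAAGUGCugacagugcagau
miR-93-5p: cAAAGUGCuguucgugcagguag
miR-25-3p: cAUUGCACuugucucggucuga

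The array carries a probe set for each of these 3 genes, which the sources used here do not describe further, so that mature and precursor RNA cannot be told apart. Mir25 lay between 8.07 and 8.57 on all arrays, with a fitted change of 0.06 ± 0.13 (SE). Mir93 lay between 7.01 and 7.62 (−0.08 ± 0.14), and Mir106b between 6.59 and 6.85 (−0.05 ± 0.08), under the dim reference. None passed (limma adjusted p between 0.865 and 0.918). The gene Ap4m1 starts head to head with Mcm7, with 91 bases in common, and had a change of −0.12 ± 0.10 (SE, limma adjusted p = 0.717). These 4 neighbours were added after the values of Mcm7 were seen.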

How the data were processed

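Expression was measured on 10 arrays of total RNA from dentate gyrus, 2 for each of 5 ages, taken from the sample titles. The deposited table holds 25254 probe sets and is taken as log2 levels because its values run from 2.50 to 15.04; per the labels' protocols RNA was labelled with a whole-transcript terminal labelling kit, and per the submitters' processing notes the build was mm10. The log base, background correction, summarization and normalization are not given in the sources used here. The platform annotation named 1 gene for 21496 probe sets; the 1565 that name several genes and the 2193 that name none took no part. The probe set of highest mean stood for each of 19752 genes. Coordinates are those of a RefSeq gene table of GRCm38.p6.

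limma 3.58.1 in R 4.3.3 fitted a straight line over age (8 residual degrees of freedom) and age as a factor (5), two-sided, with Benjamini-Hochberg adjustment over all genes and a threshold of 0.05. The fits were tested on simulated data. Pairs of genes were compared with 100000 permutations. The number of arrays limits the precision. The genes, the lists, the motifs and the rules for naming were chosen with earlier results of these data known. Named by rule were the called genes of each of the 5 lists of the wider machinery, up to 4, the 2 largest of those not called, and the 6 genes most alike. Genes of the cell type lists were named without such a rule. Counts of called genes, over all genes and in each list, and the changes of the 10 genes and of the other genes named with a change, except Orc1 to Orc6 and the genes of the oligodendrocyte precursor list, were recomputed with quantile normalization or median centring, with a replicate block, without dim genes, with array weights, with trended and robust variances, on log2 of age, on means of several probe sets, and without single arrays or whole ages. Pair correlations, list medians and summed levels were computed once.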

Additional observations from a re-analysis of the deposited data

How the results depend on the processing

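Rrm2 and Mcm7 had negative changes in every alternative run, between −0.66 and −0.54 for the trend of Rrm2 and between −0.49 and −0.29 for that of Mcm7. The trend of Rrm2 passed in 20 of 21 alternatives and that of Mcm7 in 17 of 21. Of the 10 genes, 1 was called in the trend without the 12-week arrays and 0 without the 4-week arrays (fewer arrays and a shorter span), and 1 or 2 when single arrays were left out. Counts of all genes called in the trend were 337 without the dimmest 30% (fewer genes tested), 363 with trended and robust variances, 417 with array weights, 51 without the 12-week arrays, 7 without the 4-week arrays, and 35 to 279 without single arrays. For 12 against 4 weeks they were 210, 304 and 261 under the first 3 of these and 13 to 188 without single arrays, with 0 to 2 of the 10 genes. For the F-test they were 69, 158 and 69, with 2, 1 and 1 of the 10 genes, and 5 to 50 without single arrays, with 0 or 1 of the 10; quantile normalization called 1 of the 10. Beyond the construction named, the cause was not tested. For 6 against 4 weeks the counts were 1 with quantile normalization and 3, 11 and 3 under those settings, and 0 to 10 without single arrays. For 12 against 10 weeks they were 2, 3, 7 and 4, 0 or 1 without single arrays, and 2 without the arrays of 6 and 8 weeks replicate 1 together, an alternative chosen after seeing the data. For 8 against 6 weeks single omissions gave 0 to 1079 genes, the most where 8 weeks replicate 1 alone stood for its age; 0 of the 10 genes passed in any step. A check of the replicate number gave correlations from −0.34 to 0.16 over 10 pairs of ages, 3 of them above 0.1. These were not correlations of the levels themselves, which lay between 0.994 and 0.998 for all arrays. Whether the replicate number marks a shared condition was not tested. With it as a block, 66 genes and 1 of the 10 were called for 12 against 4 weeks (Mcm7 had a limma adjusted p of 0.0518). The F-test then called 13 genes. Without the block these counts of genes were 102 and 33.

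Changes near zero turned sign in the trend, without passing: Mcm5 with quantile normalization (0.011), Tyms with median centring (0.0042) and without the 4-week arrays (0.0098), and Mcm3 (0.0335), Mcm6 (−0.0263) and Mir93 (0.12) without the 12-week arrays. Without the 4-week arrays Mir25 had −0.16 and Mir106b 0.029. Without the arrays of 6 and 8 weeks replicate 1 together, Mcm4 had 0.0030 and Tyms 0.0024. Leaving out single arrays moved the trend of Mcm3 between −0.051 and 0.021, Mcm4 between −0.11 and 0.0036, Mcm5 between −0.055 and 0.034, Tyms between −0.048 and 0.011, Mir25 between −0.027 and 0.20 and Mir106b between −0.13 and 0.0053, and the difference of 12 and 4 weeks of Mcm3 between −0.092 and 0.0145 and of Mcm5 between −0.10 and 0.0512. Levels near the dim reference, as for Mcm3 and Gins1 and, at 12 weeks, Mki67, Top2a and Tpx2, limit what a change of those genes can show.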

Other observations

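The genes most alike to Mcm7 and to Rrm2 taken singly were also read, a listing chosen after their values were seen. Over the 10 arrays Mcm7 had r = 0.990 with Plppr1, a membrane protein of growing neurites, 0.983 with Nasp, a histone chaperone that binds new histones in S phase, 0.973 with Mtss1, 0.973 with AW551984, 0.972 with Dpysl3, a collapsin response mediator protein, and 0.972 with Zfp57. All 6 fell with age, Nasp by 0.48 on the log2 scale and Mtss1 by 0.72. Rrm2 had r = 0.975 with Lpar1, a lysophosphatidic acid receptor found on neural precursors, 0.964 with Ednrb, an endothelin receptor, 0.963 with Sipa1, 0.961 with Fxyd6, 0.955 with Midn and 0.954 with Smpdl3a, which fell as well. These are descriptions over arrays that share the age trend. Without both 4-week arrays all of these genes but Dpysl3 failed to pass, and without 4 weeks replicate 1 the calls of Nasp (adjusted p = 0.131), Plppr1 (0.0949), AW551984 (0.151), Lpar1 (0.0949), Ednrb (0.0676), Sipa1 (0.178), Fxyd6 (0.165) and Smpdl3a (0.0768) were lost. Over all settings tried, Sipa1 failed in 12 of 21, with quantile normalization (0.0728) and 9 of the 10 single omissions among them, and Fxyd6 in 10 of 21.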
